A study of Mus musculus with 7 samples.

Results

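Collagen leaves an osteoblast only after a long series of enzymes and carriers has worked on it, and 33 mouse genes of that series are described here. They were taken by symbol and matched to Entrez gene IDs, and all 33 were among the 23725 gene IDs of the count files. Counts came from GFP-positive cells of 7 male C57BL/6 mice, 1 library of 2000 sorted cells per mouse. All mice, tumor-bearing and tumor-free alike, carried KrasLSL-G12D/WT and p53Flox/Flox alleles, which Cre recombinase activates and deletes, and the Ocn GFP reporter, in which the osteocalcin promoter drives GFP. In 4 mice lung tumors had been started with intratracheal adenoviral Cre 14 weeks before, and 3 mice were tumor-free; what virus or vehicle the tumor-free mice received is not stated separately. Age was 31 weeks in 5 mice and 23 weeks in the remaining pair, replicate 4 with a tumor and replicate 3 without. The cells were negative for CD45, CD31 and Ter119 and came from collagenase-digested bone pooled with lineage-depleted marrow, so each library is a mixture of both compartments.

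Procollagen chains enter the endoplasmic reticulum through a translocation channel. There prolines and lysines are hydroxylated, some hydroxylysines receive sugars, and chaperones hold the chains until the triple helix has closed. The folded procollagen is too long for ordinary transport vesicles and needs its own export receptor. Outside the cell, proteinases cut off the end propeptides and lysyl oxidases cross-link the fibrils. Osteoblasts are among the heaviest users of this route, and inherited defects in many of these genes cause brittle bone.

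The libraries were shallow, with 77127 to 169774 counts, with 121741 ± 41756 in tumor-bearing (SD, n = 4) and 114570 ± 10969 in the other mice (n = 3; two-sided exact permutation p = 0.800, of which 0.0286 is the smallest that 35 splits can give). A count of 3, the limit that a count of 0 allows, corresponds to between 17.7 and 38.9 CPM, the depth-scaled count used here for levels, from the deepest library to the shallowest. Each library is 1 mouse, and fewer cells of a type cannot be told apart from less RNA per cell. The osteoblast markers were present, 14 of 14 of them with counts, at a summed 1239 to 1647 CPM with a tumor and 1611 to 2653 CPM without. That sum rested mainly on Col1a1, Sparc, Runx2, Col1a2, Ibsp and Phex (127 to 305 counts each over all libraries), and defining markers were nearly uncounted. Bglap, the osteocalcin gene, had 8 counts over all libraries, Bglap2 5, Sp7 4, Dmp1 3 and Postn 6. Of the cells that the sort should remove, 4 of 6 endothelial markers were at 0 everywhere, Pecam1 among them, along with 7 of 11 neutrophil markers, S100a8 and Elane among them, and 6 of 9 monocyte and macrophage markers, Lyz2 among them. The neutrophil list still summed to 1991 to 3021 CPM with a tumor and 2164 to 2555 CPM without, since Cxcr2 had 143 to 229 counts and Csf3r 62 to 127 in every library. The monocyte list summed to 1637 to 2087 and 1713 to 1930 CPM, mostly from Ms4a6c (150 to 244 counts). Of 8 lymphoid markers 4 were at 0 everywhere, and the list summed to 324 to 516 and 295 to 504 CPM. Cd3d (16 to 34 counts) and Cd3g (5 to 43) gave most of that. Marrow stroma and fat markers summed to 695 to 934 and 617 to 759 CPM, mostly from Lepr (58 to 123 counts). Chondrocyte markers, 6 of 7 of them counted, summed to 583 to 2772 CPM with a tumor and 902 to 1096 CPM without. The 8 erythroid markers summed to 77.7 to 104 CPM with a tumor and 122 to 206 CPM without; the part of any of these cells in the differences between groups was not tested.

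Few genes of the route carried nearly all of its counts. The 33 genes together had 2162 of 830673 counts, and Loxl2, P3h3 and P4ha1 held 85.9% of them. Loxl2 alone held 50.1%, P3h3 26.3% and P4ha1 9.44%. The other 30 genes shared 305 counts over 7 libraries. Only 7 of the 33 had a count in every library, 22 had between 1 and 10 counts in total, and P4ha2, Fkbp10 and Kdelr3 had 0 everywhere. Low counts were the rule in these libraries as a whole: 75.8% of the 33 genes and 74.9% of 20356 protein-coding gene IDs had 10 counts or fewer in total. A count of 0 in all libraries was the lot of 9.09% of the 33 genes and of 40.6% of protein-coding IDs, and the median total was 4 against 1. The summed share of a library lay between 0.225% in tumor-free replicate 1 (95% Clopper-Pearson interval 0.197% to 0.256%) and 0.318% in tumor-bearing replicate 1 (0.279% to 0.360%). These intervals cover counting error only.

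**Figure D1:**
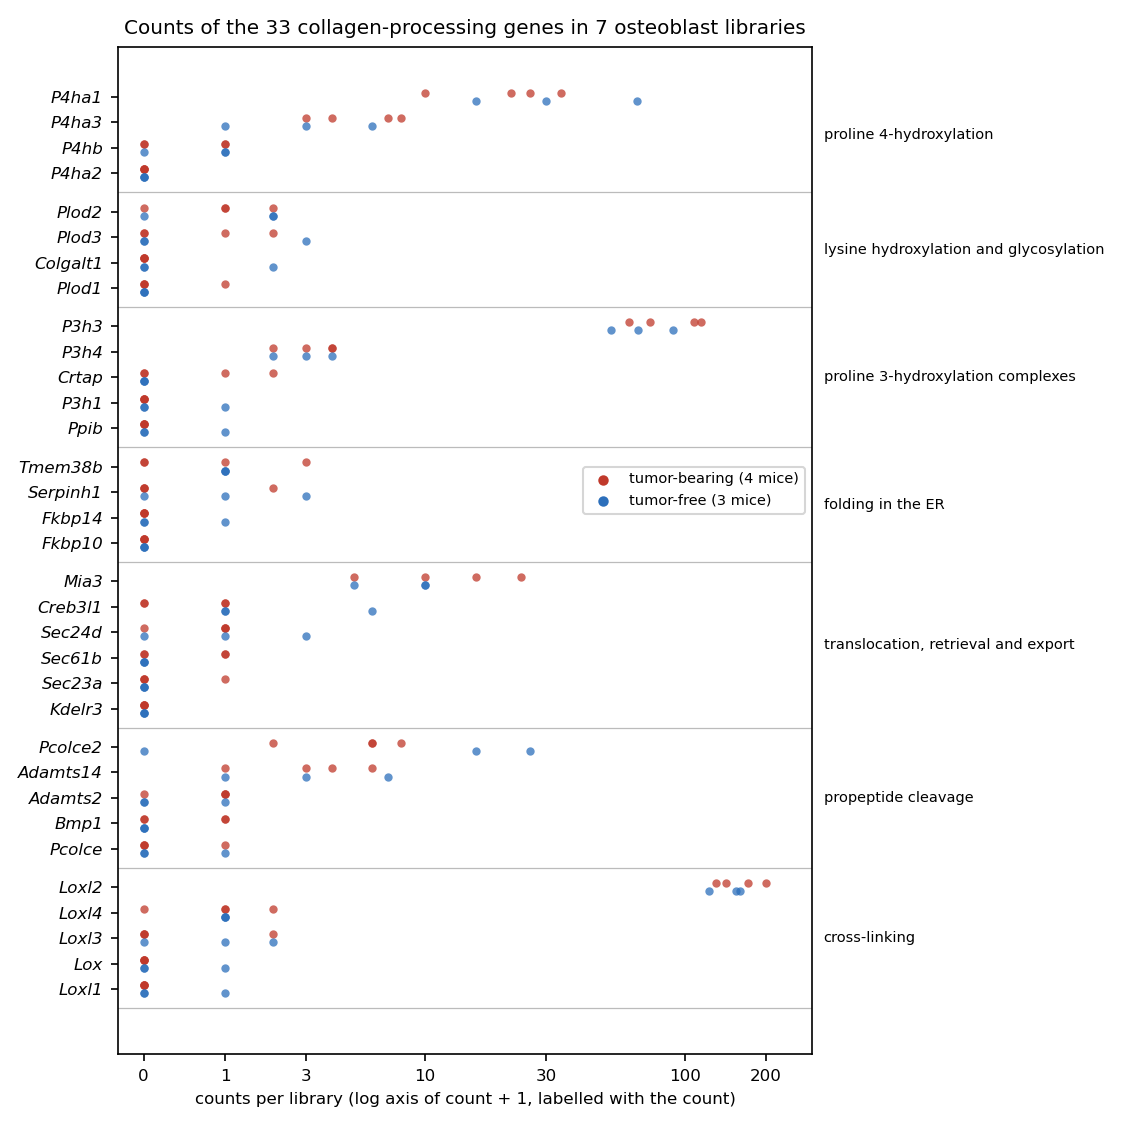
Counts of each of the 33 genes in each library, grouped by step of the route, on a log axis of count + 1 labelled with the count; red points are the 4 tumor-bearing and blue points the 3 tumor-free mice. Loxl2 and P3h3 stand apart at 53 counts or more in every library, while most genes lie at 0 to 3 counts.

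Of the enzymes that hydroxylate proline at position 4, only 1 catalytic subunit was well counted. P4ha1, the widespread catalytic subunit, had 22, 34, 26 and 10 counts in tumor-bearing replicates 1 to 4 and 16, 66 and 30 in tumor-free replicates 1 to 3. The alternative subunit P4ha3 had 1 to 8 counts, and P4ha2, the form best known from cartilage and bone, had none. P4hb, the disulphide isomerase that completes the enzyme with either subunit, had 4 counts over 4 libraries. P4ha1 lies at chromosome 10, 59323197 to 59373304 (mm10). It is well known as a gene induced by low oxygen through promoter elements with the core ACGTG or GCGTG. The promoter is shown because P4ha1 was the most counted hydroxylase of this step. It is the 250 bases before a RefSeq start (GRCm38.p6, chr10:59323046-59323295, plus strand) that lies downstream of the gene start given above, 59323197. The last part of the window is therefore inside the gene as given, and the ACGTG lies in that part. The window holds 1 ACGTG and 2 GCGTG on either strand, in capitals here.
P4ha1: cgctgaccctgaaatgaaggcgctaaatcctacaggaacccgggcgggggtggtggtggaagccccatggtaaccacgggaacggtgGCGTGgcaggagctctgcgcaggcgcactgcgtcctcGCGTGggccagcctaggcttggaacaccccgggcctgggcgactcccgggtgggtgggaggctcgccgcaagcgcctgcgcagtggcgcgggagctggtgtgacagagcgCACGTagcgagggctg
Either core occurred, on either strand, in 80.8% of 26 promoter windows of 23 of the 33 genes and in 43.8% of all 32851 RefSeq promoter windows of 300 bases. The windows of the 33 genes were richer in G and C (median 64.0%, against 52.7% over all windows), and no test was made of this difference.

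The lysine-modifying enzymes were nearly uncounted. The lysyl hydroxylase genes Plod1, Plod2 and Plod3 had 1, 8 and 6 counts over all libraries, and Colgalt1, which adds galactose to hydroxylysine, had 2, both in tumor-free replicate 2. The step as a whole had 0 to 5 counts per library.

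The proline 3-hydroxylation complexes were uneven inside. P3h3 (chromosome 6, 124841089 to 124857746) had 62, 74, 108 and 115 counts in tumor-bearing replicates 1 to 4 and 53, 67 and 90 in the tumor-free ones. P3h4, the scaffold with which P3h3 forms a complex that serves lysine hydroxylation, had 2 to 4 counts. P3h1, Crtap and Ppib, the enzyme, its helper and the cyclophilin that together modify type I collagen, had 1, 3 and 1 counts in all. P3h3 ranked 335th by total count over all gene IDs.

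Genes for folding helpers had little to count. Serpinh1, the collagen-specific chaperone of the endoplasmic reticulum, had 6 counts, 3 of them in tumor-free replicate 1 and 2 in tumor-bearing replicate 1. Fkbp10 had 0 and Fkbp14 1; both encode prolyl isomerases of the folding helix. Tmem38b, a cation channel of the reticulum, had 7 counts over 5 libraries.

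Among genes of entry, retrieval and export, Mia3 was the one with counts throughout. Mia3, the receptor that loads procollagen at exit sites, had 10, 5, 24 and 16 counts in tumor-bearing replicates 1 to 4 and 10, 5 and 10 in the tumor-free mice. The coat genes Sec23a and Sec24d had 1 and 7 counts, the channel subunit Sec61b 2, and the retrieval receptor Kdelr3 0. Creb3l1, the membrane-bound transcription factor that drives secretory genes in osteoblasts, had 10 counts, 6 of them in tumor-free replicate 1. The promoter windows of Mia3, Sec23a, Sec24d and Kdelr3 hold TGACGTG, a core read by membrane-bound factors of the Creb3 and Atf6 families, which also contains the ACGTG counted above. These 4 genes are set together for the motif: they were the only ones to hold it among the 23 genes with a window, and Sec61b, of the same step, did not. That is 15.4% of the 26 windows, against 2.01% of all 32851. The 30 bases around each match are set together to compare them, 5′ to 3′ on the gene's strand, with the match in capitals; in Kdelr3 it reads on the other strand.
Mia3: tgagcccttgcTGACGTGtcactcgcagca
Sec24d: gcccgggcgccTGACGTGgcactagcaacc
Sec23a: ctcctccccttTGACGTGgcagaggcggca
Kdelr3: ggccgccccgcCACGTCAccgcgcggccaa
They lie at chr1:183369633-183369662 (minus strand), chr3:123267459-123267488 (plus), chr12:59011993-59012022 (minus) and chr15:79516368-79516397 (plus) of GRCm38.p6. The Sec24d window belongs to a RefSeq start inside the gene, whose outermost start is at 123264801. A match is a run of letters and not a measured binding site. The 4 genes with it ranged from 0 counts (Kdelr3) to 80 (Mia3), so they did not share a level.

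Of the genes that trim procollagen outside the cell, Pcolce2 was the most counted and the least even. Pcolce2, an enhancer of the C-proteinase, had 6, 6, 8 and 2 counts in tumor-bearing replicates 1 to 4 and 0, 26 and 16 in tumor-free replicates 1 to 3. Its relative Pcolce had 2 counts, and the C-proteinase gene Bmp1 2. The N-proteinase genes Adamts2 and Adamts14 had 4 and 25 counts.

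Cross-linking was represented by Loxl2 almost alone. Loxl2 (chromosome 14, 69608692 to 69695834), a lysyl oxidase that also cross-links type IV collagen of basement membranes, had 131, 143, 200 and 172 counts in tumor-bearing replicates 1 to 4 and 123, 155 and 160 in the tumor-free ones. It ranked 40th of all gene IDs by total count. Lox, the founding member and the main oxidase of fibrillar collagen in bone, had 1 count, Loxl1 1, Loxl3 5 and Loxl4 7.

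Levels were compared between genes per kilobase of the longest GENCODE transcript, although 3′ end counts need not scale with length. On this scale Loxl2 had 253 ± 44.3 CPM per kb (SD over 7 mice) and P3h3 238 ± 42.8. Per kilobase Loxl2 was above P3h3 in 5 of 7 mice, so on this scale these neighbours did not differ beyond their spread. Without division by length, Loxl2 was above P3h3 in 7 of 7 mice. P4ha1 followed with 64.7 ± 41.2 CPM per kb, below P3h3 in 7 of 7 mice, then Mia3 with 31.6 ± 12.7, Pcolce2 with 17.8 ± 17.3 and P4ha3 with 15.7 ± 6.96. P4ha1 was above Mia3 in 5 of 7 mice and Mia3 above Pcolce2 in 5 of 7. The substrate genes lay lower than the cross-linker: Col1a1, the main chain of type I collagen, had 68.8 ± 47.3 CPM per kb and Col1a2 a mean of 35.8 (18.6 to 50.1), each below Loxl2 in 7 of 7 mice.

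Each of the 5 genes with most counts had A-rich stretches, words shared with many other genes, or both in its 3′ UTR, but no single feature was common to all 5. In the 3′ UTR of Loxl2, 3 stretches of 52 to 61 bases between positions 69695510 and 69695685 hold 25-base words found in transcripts of at least 50 genes, and an A-rich stretch of 17 bases, 15 of them A, follows 130 bases before the end. The coding transcript of P3h3 holds 2 such shared stretches, of 46 and 33 bases, in its 3′ UTR, ending 174 and 101 bases before the end. P4ha1 has an A-rich stretch of 29 bases, 27 of them A, 947 bases before its end, Mia3 1 of 18 bases and Pcolce2 2 of 20 and 17 bases. All lie in the 3′ UTR of GENCODE transcripts. The 17-base stretch of Pcolce2 (95697585 to 95697601) lies beyond the RefSeq end of the gene at 95695551. Over longest transcripts, either feature was present in 5 of the 8 genes with over 10 counts (62.5%, against 2918 of 5509 over all genes with over 10 counts), the other three being P4ha3, Adamts14 and P3h4. It was present in 7 of the 25 genes with 10 counts or fewer, against 18.9% of all genes with so few. The libraries were made from 3′ ends, and the sources used here do not say how reads matching several places were treated; the part of these stretches in the counts was not tested. Exons of Gm27177, an antisense gene of GENCODE, overlap those of Loxl2, and without a stated strand setting reads of both cannot be told apart.

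**Figure D2:**
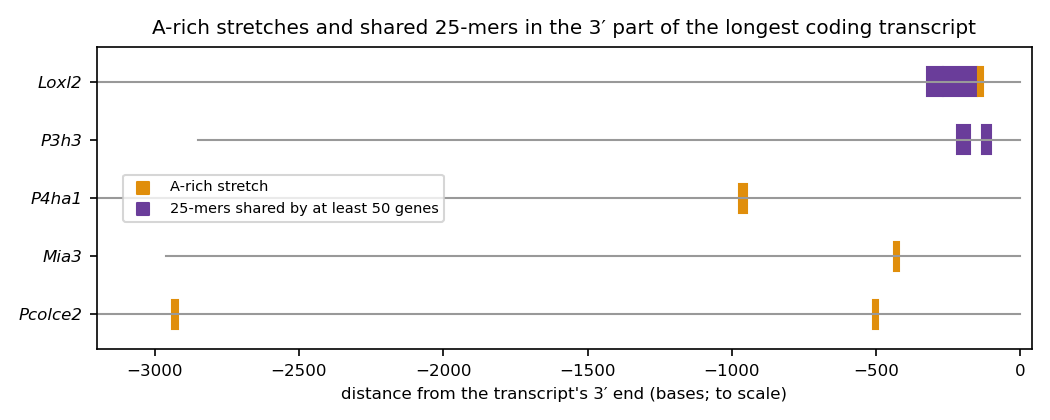
Map, to scale, of the 3′ part of the longest coding transcript of the 5 most counted genes, with distance before the transcript's end in bases; orange marks A-rich stretches (at least 11 A in 12 bases, not searched in the last 100 bases) and purple marks 25-base words shared by at least 50 genes. The marks of Loxl2 and P3h3 end no more than 270 bases before the transcript's end, and those of P4ha1, Mia3 and Pcolce2 farther away.

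The level of Loxl2 was not even over libraries of different depth. Scaled levels were 1810, 1466, 1104 and 1198 CPM in tumor-bearing replicates 1 to 4 and 1226, 1339 and 1254 CPM in tumor-free replicates 1 to 3. The shallowest library had the highest level and the deepest the lowest. The deepest library had 2.20 times the counts of the shallowest, but 1.53 times those of Loxl2, 1.74 times those of P3h3, 1.33 times those of Pcolce2 and 1.18 times those of P4ha1, and 2.40 times those of Mia3. CPM has depth in its denominator, so these quantities are not independent, and the part of depth in the levels was not tested.

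**Figure D3:**
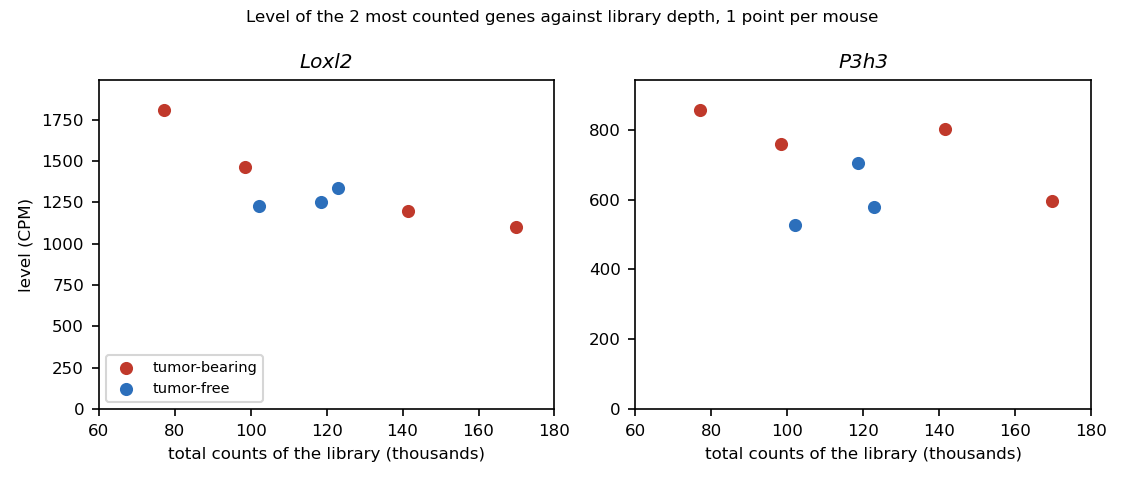
Level of Loxl2 and P3h3 in CPM against the total counts of the library, 1 point per mouse, red tumor-bearing and blue tumor-free. Loxl2 has 1810 CPM in the shallowest library and 1104 CPM in the deepest, where P3h3 has 857 and 596 CPM.

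The comparison of tumor-bearing with tumor-free mice asked whether a tumor in the lung is accompanied by another level of these genes in distant bone cells. None of the 33 passed. Only 5 of them, Loxl2, P3h3, P4ha1, Mia3 and Pcolce2, had enough counts for the test, and 0 of these 5 were called by edgeR's quasi-likelihood test, age being a covariate (adjusted p = 0.992 each), where 0% of 2784 genes tested were called. At an unadjusted p under 0.05 there were 0 of the 5 and 85 of all genes (3.05%), 28 higher and 57 lower. DESeq2 and limma voom also called 0 genes, and 0 of the 5 unadjusted. The split of all genes at an unadjusted p under 0.05 depended on the tool, with 13 higher and 47 lower in DESeq2 but 65 higher and 46 lower in limma voom. The median log2 fold change of the 5 was 0.10 and that of all genes tested 0.03. The groups overlapped in CPM in each of the 5, where they did not in 3.56% of genes tested, and 5 genes are too few to set against that share. They also overlapped in the other 28, whose counts were too low to compare with it. For P4ha2, Fkbp10 and Kdelr3, with no counts at all, and for genes with the fewest counts, no other outcome was possible.

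Loxl2 and P3h3 were measured most precisely. Loxl2 averaged 1395 ± 317 CPM with a tumor (SD, n = 4) and 1273 ± 58.8 CPM without (SD, n = 3), a log2 fold change of 0.10 (SE 0.21, 95% interval -0.38 to 0.58). The tumor-free values fell inside the range of the tumor-bearing ones. P3h3 had 857, 759, 596 and 801 CPM with a tumor and 528, 579 and 706 CPM without, means of 753 ± 112 and 604 ± 91.4 CPM. For P3h3, 3 of 4 tumor-bearing libraries lay above every tumor-free one and replicate 3 lay among them (log2 fold change 0.33, SE 0.21, interval -0.16 to 0.82; adjusted p = 0.992, edgeR).

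**Figure D4:**
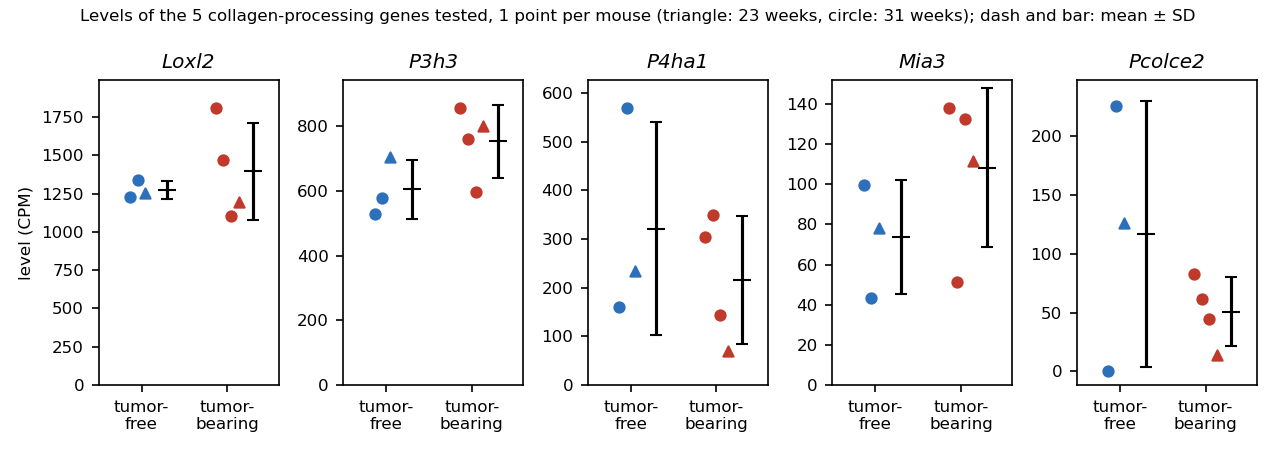
Level in CPM of the 5 genes tested, each on its own axis from 0 upward, 1 point per mouse, with triangles for 23-week and circles for 31-week mice and the mean ± SD beside each group. The groups overlap in every panel, and the tumor-free mice spread widest for P4ha1 (159 to 570 CPM) and Pcolce2 (0 to 225 CPM).

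P4ha1 and Pcolce2 lay on the lower side with a tumor, and their tumor-free libraries were far apart. P4ha1 had 304, 349, 144 and 69.6 CPM in tumor-bearing replicates 1 to 4 and 159, 570 and 235 CPM in tumor-free replicates 1 to 3, a log2 fold change of -0.82 (SE 0.53, interval -2.06 to 0.42). Tumor-free replicate 2 held 32.4% of its counts, and the value was -0.30 without that library and -1.31 without tumor-free replicate 1. Pcolce2 had 82.9, 61.5, 44.2 and 13.9 CPM with a tumor and 0, 225 and 125 CPM without (log2 fold change -1.43, SE 0.93, interval -3.65 to 0.74). For Pcolce2, all 4 tumor-bearing libraries lay above tumor-free replicate 1 and below tumor-free replicates 2 and 3. Its value was -2.15 without tumor-free replicate 1 and -0.95 without tumor-free replicate 3, and without tumor-free replicate 2 it was no longer tested. Neither gene passed edgeR's test (adjusted p = 0.992 each).

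Mia3 lay on the higher side. It had 138, 51.3, 132 and 111 CPM in tumor-bearing replicates 1 to 4 and 99.7, 43.2 and 78.4 CPM in tumor-free replicates 1 to 3, so that 3 of 4 tumor-bearing libraries exceeded every tumor-free one and replicate 2 did not. The log2 fold change was 0.59 (SE 0.46, interval -0.47 to 1.67; adjusted p = 0.992, edgeR), and it was 0.27 without tumor-free replicate 2 and 0.91 without tumor-free replicate 1. The intervals of P4ha1, Pcolce2 and Mia3 each include a 2-fold difference in 1 direction as well as 0.

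**Figure D5:**
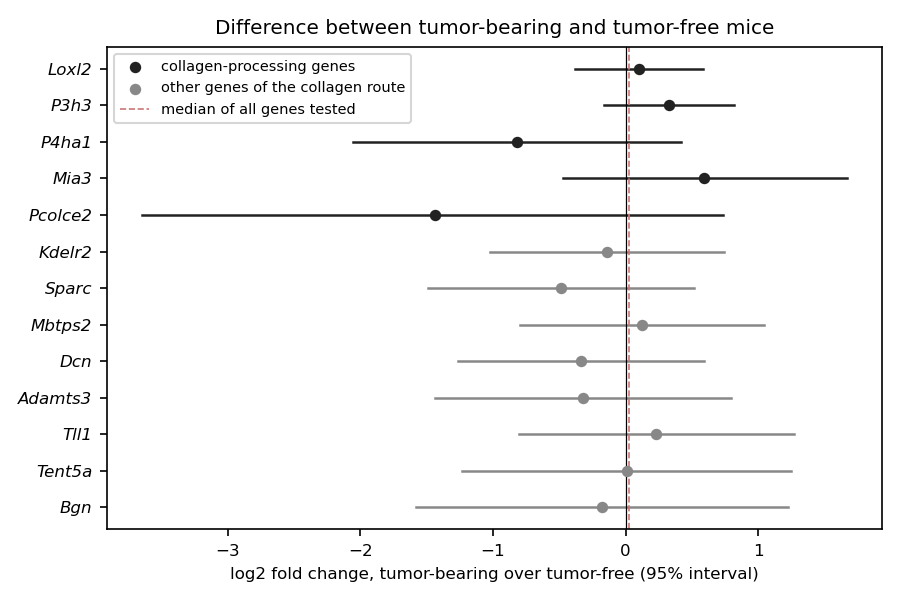
Log2 fold change, tumor-bearing over tumor-free, with its 95% interval, for the 5 collagen-processing genes tested (black) and 8 other genes of the collagen route (grey); the dashed line is the median of all genes tested. Every interval crosses 0, and those of Loxl2 and P3h3 are the narrowest.

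The other 28 genes were too thinly counted to test. Just below the count needed stood P4ha3, Adamts14 and P3h4 with 32, 25 and 22 counts, and just above it Pcolce2 and Mia3 with 64 and 80. Without a low count filter, P4ha3 had 45.1 ± 12.4 CPM with a tumor (SD, n = 4) and 27.6 ± 18.6 CPM without (SD, n = 3; log2 fold change 0.75, SE 0.64), Adamts14 a log2 fold change of 0.01 (SE 0.71), P3h4 0.01 (SE 0.71) and Plod2 -0.50 (SE 1.23). Creb3l1 had 1 count in each of tumor-bearing replicates 2 and 3 and 0 in the remaining pair, against 6, 1 and 1 in the tumor-free mice (log2 fold change -2.34, SE 1.21, adjusted p = 0.793 by edgeR without a filter). Of the 25 untested genes with a count, Creb3l1 alone had an unadjusted p under 0.05 in that fit. Over all genes, 456 of 13344 had one, so 1 of 25 does not stand out.

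Summed over all 33 genes, the level was 2703 ± 533 CPM with a tumor (SD, n = 4) and 2605 ± 318 CPM without (SD, n = 3), a difference smaller than the spread in either group. The values were 3385, 2850, 2186 and 2389 CPM in tumor-bearing replicates 1 to 4 and 2292, 2928 and 2595 CPM in tumor-free replicates 1 to 3. By step, cross-linking had 1406 ± 312 against 1296 ± 55.9 CPM, proline 3-hydroxylation complexes 790 ± 120 against 637 ± 83.0 CPM, and proline 4-hydroxylation 265 ± 123 against 355 ± 216 CPM. Propeptide cleavage had 89.7 ± 23.9 against 154 ± 101.2 CPM and the export step 125 ± 37.2 against 111 ± 50.7 CPM. The folding step had 14.5 ± 19.6 against 24.3 ± 13.5 CPM and the lysine step 13.3 ± 10.3 against 28.1 ± 25.5 CPM. No step was given a test.

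Of 47 other genes of the route, 18 had 0 counts everywhere and 8 could be tested, and 0 of these passed in either direction (edgeR, lowest adjusted p = 0.992). Of the 8, 5 lay below and 3 above 0, with a median log2 fold change of -0.16. On the lower side Sparc, a matrix protein that also escorts collagen, had 306 ± 192 CPM with a tumor and 391 ± 52.7 CPM without (log2 fold change -0.48, SE 0.43). Dcn, which coats collagen fibrils, had 101 ± 23.2 against 133 ± 68.4 CPM (-0.33, SE 0.40), and Adamts3, an N-proteinase best known from type II procollagen, -0.32 (SE 0.48). On the higher side stood Tll1, a relative of Bmp1 (0.23, SE 0.45), and Mbtps2, a membrane protease that activates factors such as Creb3l1 (0.13, SE 0.40). The third, Tent5a, had 0.01 (SE 0.53). Kdelr2, the retrieval receptor related to Kdelr3, had 24 to 78 counts per library where Kdelr3 had 0. The substrate genes, which are also on the osteoblast list, were not called: the log2 fold change was -1.08 for Col1a1 (SE 0.53) and -0.55 for Col1a2 (SE 0.32), each with an adjusted p of 0.992 in edgeR. For Col1a2 all 4 tumor-bearing libraries (99.4 to 205 CPM) lay below every tumor-free one (209 to 268 CPM), and for Col1a1 3 of 4 did. Groups did not overlap in 3.56% of all genes tested.

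Age separated none of these genes either. Comparing 31-week with 23-week mice in the same model, 0 of the 5 genes and 0 of 2784 (0%) were called by edgeR, and 0 of the 5 and 137 (4.92%) had an unadjusted p under 0.05. DESeq2 and limma voom called 0 as well, with 95 and 203 genes unadjusted. P4ha1 had the widest difference of the 5, with a mean of 305 CPM at 31 weeks (n = 5) and 152 CPM at 23 weeks (n = 2; log2 fold change 1.11, SE 0.62, adjusted p = 0.955). The 2 mice of 23 weeks, 1 in each group, had 69.6 and 235 CPM of P4ha1, and the 31-week mice 144 to 570 CPM. The other four log2 fold changes were 0.13 for Loxl2 (SE 0.23), -0.26 for P3h3 (SE 0.22), -0.10 for Mia3 (SE 0.48) and 0.47 for Pcolce2 (SE 1.01).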

How the data were processed

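Per the labels' protocols, Trizol RNA from the sorted cells went into 3′ end libraries of a modified CEL-Seq kind that carry molecular identifiers. TopHat2 2.0.10, SAMtools and mm10 are named by the submitters' processing notes; counting program, strand setting and any collapse of identifiers: not given in the sources used here. Values were deposited as whole-number raw counts for Entrez gene IDs. No pair of libraries agreed within sampling noise (chi-square per degree of freedom at least 3.57). RefSeq (GRCm38.p6) gave symbols.

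Genes were filtered with filterByExpr on the full design (minimum count 10, minimum total 15), scaled by TMM and tested in edgeR 4.0.16 (robust glmQLFit, glmQLFTest; R 4.3.3) with age as a covariate, Benjamini-Hochberg over all 2784 genes at 0.05; the procedure was tested on simulated data. Log2 fold changes used a prior count of 0.125; CPM used TMM-scaled totals, marker sums unscaled ones. Alternatives included DESeq2 1.42.0 and limma 3.58.1. The genes, lists and tests were chosen with earlier results of these data known; all 33 genes were to be named, and of the other list up to 3 per side by smallest p. Libraries labelled with the same replicate number did not deviate together (correlations -0.16, -0.09 and -0.11). Transcripts came from GENCODE vM21, promoter windows (250 bases before to 50 after the start) from RefSeq.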

Additional observations from a re-analysis of the deposited data

Results flagged for a closer look

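Sec24b, a coat gene of the export vesicles, had 212 counts in tumor-bearing replicate 1 and 0 to 4 counts in every other library. The gap of that library to the next tumor-bearing one was 0.994 of the group's range in CPM, above Dixon's 95% critical value for 4 samples. Sec24b did not pass the low count filter and was not tested.

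Bgn, a small proteoglycan of the matrix, had 97.5 CPM in tumor-bearing replicate 4 and 27.6 to 38.6 CPM in the other tumor-bearing mice, a gap of 0.842 of the range. The tumor-free mice had 89.7, 51.8 and 39.2 CPM. These were 2 of 40 values examined, and the critical value flags about 1 in 20 by chance if values are normal and independent. The low counts, and the sums taken over the same genes, need not meet that condition.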

How the results depend on the processing

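Under all 20 alternatives, including those chosen after seeing the data (a filter by group only, which tested 2495 genes, and quantile-normalized voom), 0 genes and 0 of the 33 were called between tumor-bearing and tumor-free mice, with 32 to 456 genes at an unadjusted p under 0.05. The same held with the replicate number as a block (0 genes, 0 of the 33). That fit also dropped the age term and tumor-bearing replicate 4. In it P4ha1 had -0.24 and Pcolce2 -0.81, and without that replicate alone they had -0.55 and -0.99. The parts of the block, the age term and the replicate in this move were not tested. Of the 33, 0 to 2 had an unadjusted p under 0.05 under the alternatives. The 2 were P4ha1 and Pcolce2 without tumor-free replicate 1 (edgeR, lowest adjusted p = 0.491), where 121 of 2688 genes had one. P3h3, P4ha1, Mia3 and Pcolce2 kept their sign in every alternative that tested them. Loxl2 ranged from -0.0088 to 0.21 with 1 library left out, -0.0088 being the value without tumor-bearing replicate 1; the cause was not tested. The log2 ratio of the summed level was 0.05, or -0.06 to 0.15 with 1 library left out. For age, 20 genes were called with no low count filter; with 1 library left out the number was 0 to 27, with 4 without tumor-bearing replicate 4 and 27 without tumor-free replicate 3, where 1 mouse of 23 weeks remained. None of the 33 genes was among them. A stricter filter left only Loxl2, P3h3 and P4ha1 of the 33. The other 28 genes did not pass the low count filter, and 25 of them could be fitted without it.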

Other observations

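Over all genes, the features found in the 3′ UTR of Loxl2, P3h3 and P4ha1 went with high counts. An A-rich stretch or a shared 25-base word was present in the longest transcript of 68.9% of 1861 genes with over 100 counts in total, of 2918 of 5509 genes with over 10 counts and of 18.9% of 17526 genes with 10 counts or fewer. Transcripts were also longer among genes with more counts, with medians of 4092 bases over 100 counts and 2412 bases at 10 or fewer. The 3 collagen-processing genes over 100 counts all had 1 or both features.

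Counts of the most counted genes rose less than depth between the shallowest and the deepest library. The median ratio of counts was 2.89 over 909 genes with a mean of 10 to 20 counts, 2.07 over 530 genes with 50 to 100, 1.86 over 178 genes with 100 to 200, the range of Loxl2, and 1.32 over 10 genes with 200 to 400, where depth rose 2.20-fold. The highest count of any gene, not necessarily the same gene, was 291 in the shallowest library (77127 counts) and 298 in the deepest (169774 counts). Among all libraries this maximum ran only from 282 (tumor-free replicate 2) to 303 (tumor-bearing replicate 4). Loxl2 had 123 to 200 counts per library, and whether a limit on high counts affected its CPM or fold change was not tested. All of these values describe these 7 libraries, and no cause was tested.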
